A study of Mus musculus with 24 samples.

Results

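The cytosolic ribosomal protein genes are the genes whose symbol begins with Rpl or Rps followed by a digit or by p, leaving out symbols of pseudogenes (-ps) and of the S6 kinases (Rps6k). This rule found 69 of the 24704 genes tested in mouse liver, each with 1 row of the table. The family is not complete here: of 88 protein-coding genes in RefSeq that fit the rule, 24 had no row. Rpl11, Rps6 and Rplp2 are not among the 69. Of the 69, 41 carried a large subunit name and 26 a small subunit name. The other 2 do not encode ribosomal proteins: Rps23rg1 arose in the mouse by retroposition of Rps23 and encodes a membrane protein, and Rps19bp1 encodes a protein that binds S19. Among those with a subunit name, 54 were core genes, 7 were paralogs (Rpl3l, Rpl10l, Rpl22l1, Rpl36al, Rpl39l, Rpl7l1 and Rps27l) and 6 were retrocopies (Rpl6l, Rpl32l, Rps3a2, Rps3a3, Rps12l1 and Rps4l), all but Rpl32l listed as pseudogenes in RefSeq.

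Whole liver of HepCAV1wt and HepCAV1ko mice was measured on 24 arrays, 3 for each of 8 groups of genotype, diet and gender. Cav1, which encodes caveolin-1, was floxed on both alleles in both genotypes. HepCAV1ko mice also carried 1 Alb-Cre transgene, which the albumin promoter drives in hepatocytes, and their HepCAV1wt littermates lacked it, so other liver cells of the knockout kept Cav1. On strain the paper is not uniform: its methods name the Alb-Cre line as BL/6, and its discussion calls the mice FVB. The strain of the floxed line is not given there. From 8 weeks of age mice of each genotype received either the MCD diet (free of methionine and choline, and known to produce fatty liver) or a control diet holding both for 4 weeks, and were 12 weeks old at the end. The groups were thus WT con, KO con, WT MCD and KO MCD, each in males and in females. Whether the 3 numbered arrays of a group came from separate mice is not stated in the labels, and p-values reflect only how far those arrays differed.

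Each ribosome has a large subunit, which joins amino acids, and a small subunit, which reads the mRNA, and every ribosomal protein is normally needed in a fixed proportion to the others. Their mRNAs are known for a run of C and T at the 5′ end, the terminal oligopyrimidine (TOP) motif, through which the kinase mTORC1 regulates their translation in response to amino acids. Arrays measure mRNA level, not its translation. In a bulk tissue, fewer cells of a type and less RNA per cell cannot be told apart.

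Over all genes, correlations between arrays within groups were 0.981 to 0.991, and the number of arrays limits the precision of each value. The 7 hepatocyte markers measured, Alb among them, were at the 99.8th percentile of all genes or above, and 0 of the 7 changed with diet, gender or genotype on average. Cav1 was at 4.42 ± 0.55 (SD, n = 3, log2 scale) in WT con males against 3.76 ± 0.25 in KO con males, and at 4.39 ± 0.48 against 3.94 ± 0.16 in females. With the MCD diet its means lay between 4.12 and 4.22 in the 4 groups. Because probe positions around the floxed segment are unknown here, and other liver cells kept Cav1, these values are no check of the genotype labels.

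Values are on a log2 scale, where 1 unit is a doubling. Mean values over the 24 arrays ran from 1.83 for Rps26 to 10.89 for Rpl4, a protein that lines the exit tunnel of the large subunit. Of these means, 31 of the 69 genes, and 27 of the 54 core genes, lay below the median over all genes of 3.83. The large subunit names had a median of 3.67 and the small subunit names one of 4.49. These levels depend on the probes of each row, whose number and position are unknown here, and they do not rank the mRNAs. Close copies and pseudogenes share sequence with these genes, so signal read at 1 row may stem from another gene, and the value of each ribosomal protein gene named here carries that uncertainty.

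Spread within groups was unequal among the genes. Pooled over the 8 groups, the SD had a median of 0.27, and was smallest for Rpl4 (0.09), for Rpl8 of the large subunit (0.13) and for Rps3 of the small subunit (0.13). It was largest for Rpl29 (1.36), a small basic protein of the large subunit, then for Rpl23a (0.59) and for the X-linked Rps4x (0.58). Rpl29 owed its SD to single arrays. In WT con males it was at 7.11, 3.37 and 7.49, and in KO con females at 2.72, 7.41 and 7.79, while the other 22 arrays lay between 6.05 and 8.14. Its diet difference was 0.58 on the log2 scale (SE 0.48, adjusted p = 0.48).

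**Figure D1:**
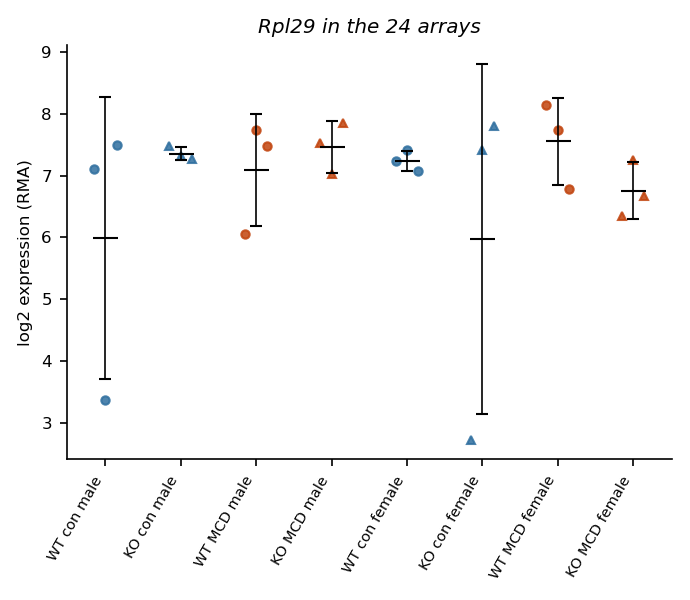
Log2 expression of Rpl29 in each array, by group (blue control diet, orange MCD diet, circles HepCAV1wt, triangles HepCAV1ko; bar and whiskers, mean ± SD, n = 3). WT con male 2 (3.37) and KO con female 1 (2.72) stand apart from the other arrays.

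Differences in the median over the ribosomal protein genes were small and were not tested. For each array, the median over the 69 genes of the value minus the gene's mean lay between -0.09 and 0.19. For the large subunit names it lay between -0.09 and 0.16, and for the small subunit names between -0.20 and 0.19, with the highest value of both in KO MCD male 2. The 8 group means of these medians spanned -0.05 to 0.06 for the large and -0.08 to 0.08 for the small subunit names, against within-group SDs of 0.06 and 0.09. For the large subunit names, WT con males (0.01, 0.07 and 0.01) lay above KO con males (-0.02, -0.01 and -0.03) with no overlap. Yet in con males the median over these names of the log2 fold change, HepCAV1ko minus HepCAV1wt, was 0.04, of the opposite sign. The order thus depends on how the median is taken. Averaged over the other factors, the median log2 fold change of the 69 genes was -0.04 for MCD minus control diet (-0.01 over all genes). It was 0.00 for male minus female (0.01 over all genes) and 0.02 for HepCAV1ko minus HepCAV1wt (-0.0005 over all genes). Large and small subunit names had medians of -0.05 and -0.04 for diet, -0.01 and 0.03 for gender, and 0.01 and 0.07 for genotype.

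**Figure D2:**
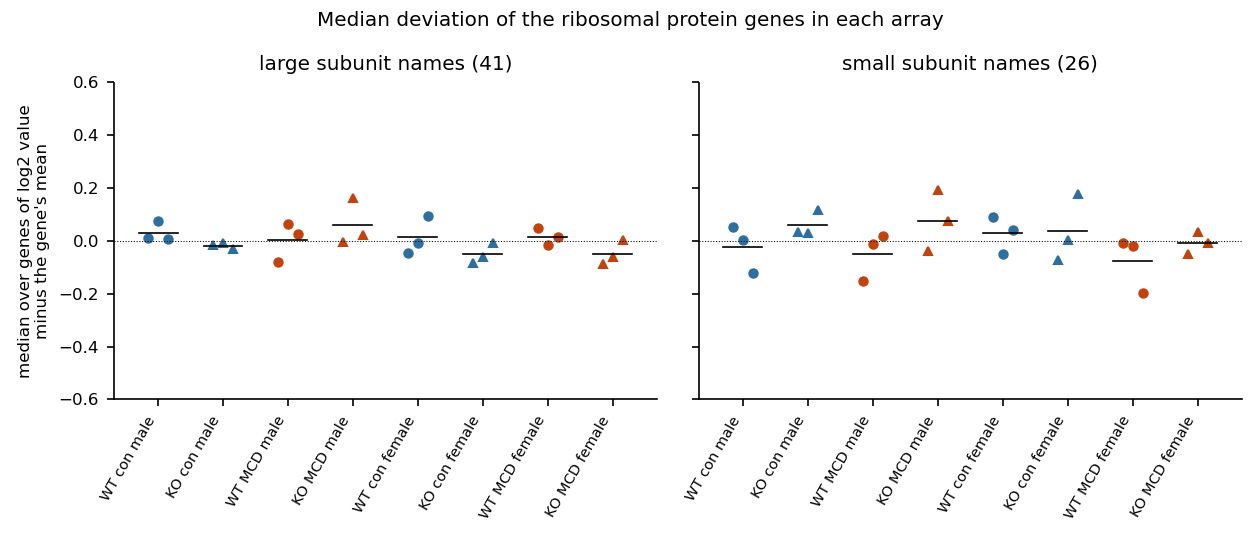
Median over the large subunit names (left) and the small subunit names (right) of the log2 value minus the gene's mean, for each array, by group; lines are group means (n = 3). Values stay between -0.20 and 0.19. In the large subunit panel the arrays of WT con males lie above those of KO con males, KO con females and KO MCD females. That order was not tested and depends on how the median is taken.

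**Figure D3:**
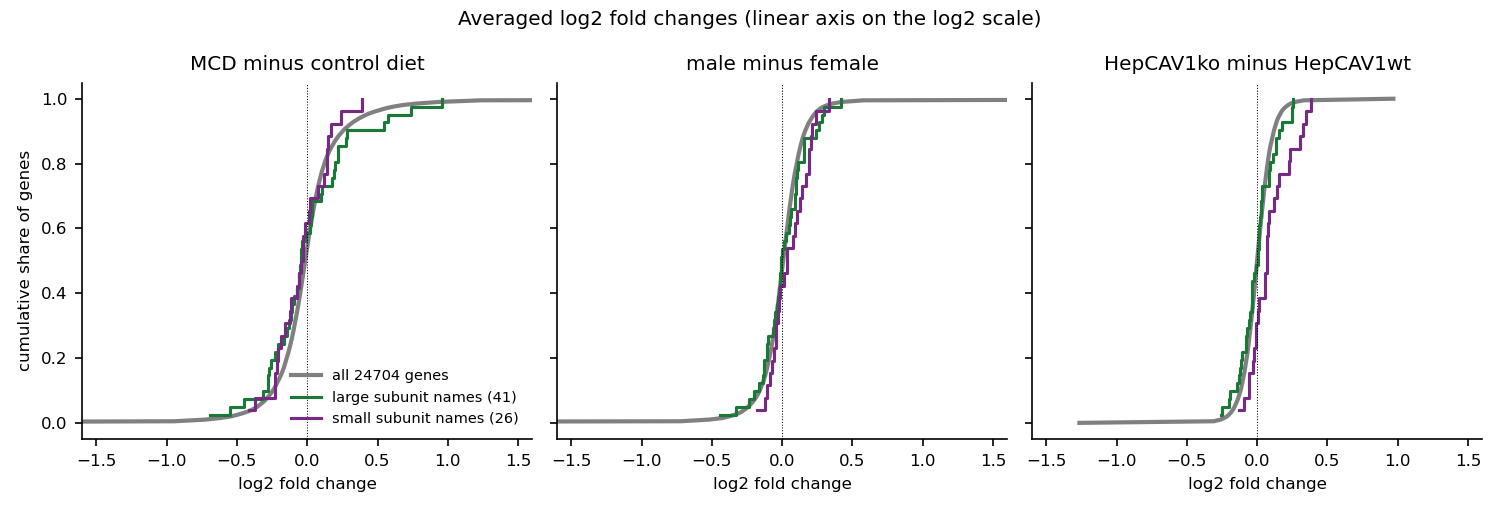
Cumulative share of genes against the averaged log2 fold change, for all genes (grey), large subunit names (green) and small subunit names (purple). The curves cross 0 close to each other in the diet and gender comparisons. In the genotype comparison the small subunit names lie to the right, with a median of 0.07, which was not tested. That median was 0.11 in con males, 0.05 in con females, 0.06 in MCD males and -0.02 in MCD females.

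With the MCD diet, single ribosomal protein genes rose and others fell. On average over genotype and gender, 12 of the 69 passed limma's test at an adjusted p under 0.05 (17.4%), against 19.2% of all genes. Of the 12, 6 were higher (8.7%, against 9.79% of all genes) and 6 lower (8.7%, against 9.39%). The count thus lay near the background, as did the 18 at an unadjusted p under 0.05 (26.1%, against 29.6%). The 12 comprised 10 of the 41 large subunit names, 1 of the 26 small subunit names (Rps24) and Rps23rg1. The within-group SD had a median of 0.40 for the small and 0.26 for the large subunit names. A difference between the subunits was not tested. Those that rose were Rpl5, Rpl27a, Rpl17, Rps24, Rplp1 and Rpl4, and those that fell were Rps23rg1, Rpl7, Rpl35a, Rpl10a, Rpl28 and Rpl7l1. The other 57 had log2 fold changes between -0.45 and 0.58. The same sign in all 4 combinations of genotype and gender was seen for 19 of the 69 (27.5%), against 33.4% of all genes.

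Bases around the transcription start are shown for those of the 12 that the RefSeq promoter table holds (build GRCm38.p6), because the TOP motif that defines this mRNA family begins at that start. Every start the table holds for these genes is shown, 13 windows in all. Each line gives the 15 bases before the annotated start and the 15 from it, 5′ to 3′ on the gene's strand, with the longest run that begins with C and holds only C and T in capitals.
Rpl5, chr5:107900513-107900542, plus strand: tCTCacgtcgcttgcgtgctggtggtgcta
Rpl27a, chr7:109519180-109519209, plus strand: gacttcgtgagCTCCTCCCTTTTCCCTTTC
Rps24, chr14:24490663-24490692, plus strand: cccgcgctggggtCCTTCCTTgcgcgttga
Rps24, chr14:24490738-24490767, plus strand: tccggcgccgtagccatcatggtgagtCTC
Rpl4, chr9:64173372-64173401, plus strand: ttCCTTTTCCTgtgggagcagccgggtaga
Rps23rg1, chr8:3567983-3568012, plus strand: gctttgcagagagtCTTTCTCTCaccccag
Rpl35a, chr16:33056438-33056467, plus strand: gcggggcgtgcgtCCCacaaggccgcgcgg
Rpl35a, chr16:33056467-33056496, plus strand: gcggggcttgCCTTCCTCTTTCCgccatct
Rpl35a, chr16:33056499-33056528, plus strand: gcgCCTgtggaggtgaggggggttcctgct
Rpl10a, chr17:28328456-28328485, plus strand: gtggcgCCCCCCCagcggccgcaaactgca
Rpl10a, chr17:28328550-28328579, plus strand: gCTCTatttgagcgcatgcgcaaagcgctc
Rpl28, chr7:4792950-4792979, plus strand: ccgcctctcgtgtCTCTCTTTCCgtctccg
Rpl7l1, chr17:46782642-46782671, minus strand: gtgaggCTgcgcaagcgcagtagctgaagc

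The table held starts for 52 of the 69 genes. A run of at least 6 bases that begins with C and holds only C and T, searched on the gene's strand alone, was found in 27 of their 64 annotated starts (42.2%) and in 22 of 52 starts of core genes (42.3%). It was found in 7384 of 32851 starts of all genes (22.5%). Counted by gene, with a run at any of its starts, it was in 26 of 52 members (50%) and in 6883 of 27025 genes (25.5%). Among the windows shown, those of Rpl5 and Rpl7l1 hold a run of only 3 and 2 bases, and the longest, of 19 bases, is that of Rpl27a. For Rpl5 the gene start in RefSeq, chr5:107900508, lies before the window shown, so the bases at that start were not searched. Rps24 and Rpl10a held a run of at least 6 bases at 1 of 2 starts, and Rpl35a at 1 of 3, the others of these starts having runs of 3 or 4. Genes with such a run at 1 or more starts rose (Rpl27a, Rps24, Rpl4) and fell (Rpl35a, Rpl10a, Rpl28, Rps23rg1). A run was counted wherever it lay in the window, in all of these shares. Those of Rpl4 and Rpl10a end before the annotated start. A run is a description of the letters and no measured TOP motif, and windows depend on where the annotation puts the start.

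Rpl5 carries, with Rpl11, the 5S rRNA into the large subunit, and the 2 proteins bind Mdm2 and so restrain its action on p53. In WT males it was at 5.33, 5.04 and 4.35 with the control diet and at 6.10, 5.78 and 6.02 with the MCD diet. In KO males the control arrays were at 4.92, 5.19 and 5.40 and the MCD arrays at 5.73, 6.23 and 5.99. In both genotypes of males every MCD array was above every control array. In WT females the control arrays were at 5.13, 5.35 and 5.37 and the MCD arrays at 6.07, 6.20 and 5.73. In KO females the control arrays were at 4.88, 4.59 and 4.83 and the MCD arrays at 5.71, 6.18 and 6.13. All 12 MCD arrays (5.71 to 6.23) thus lay above all 12 control arrays (4.35 to 5.40). On average Rpl5 was higher by 0.96 on the log2 scale (SE 0.10, limma adjusted p = 4.8e-07). It passed in all 4 combinations, by 1.06 in WT males (adjusted p = 0.00303), 0.71 in WT females (adjusted p = 0.0455), 0.81 in KO males (adjusted p = 0.0173) and 1.24 in KO females (adjusted p = 0.00174). Its call in WT females was lost when any 1 of 5 arrays was left out, all except WT MCD female 3 (adjusted p from 0.0388 to 0.167). In KO males it was lost without KO con male 1 or KO MCD male 2 (up to 0.0908).

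Rps23rg1 gave the largest average decrease among the 69 genes. In WT males it was at 4.94, 5.63 and 5.07 with the control diet and at 3.96, 4.11 and 4.09 with the MCD diet. In KO males the control arrays were at 5.36, 4.88 and 4.86 and the MCD arrays at 3.90, 3.80 and 3.98. Control arrays were higher in both genotypes, with no overlap. In WT females the control arrays were at 5.99, 5.97 and 5.34 and the MCD arrays at 4.15, 4.34 and 4.15. In KO females the control arrays were at 5.80, 5.04 and 5.59 and the MCD arrays at 3.91, 3.87 and 3.95. Across all groups the 12 MCD arrays (3.80 to 4.34) lay below the 12 control arrays (4.86 to 5.99). The average difference was -1.35 on the log2 scale (SE 0.10, adjusted p = 2.1e-09), and it passed in each of the 4 combinations, at -1.16 in WT males (adjusted p = 0.00106), -1.55 in WT females (adjusted p = 6.7e-05), -1.14 in KO males (adjusted p = 9.2e-04) and -1.57 in KO females (adjusted p = 9.9e-05). These calls held whichever single array was left out. Its parent Rps23, a small subunit protein of the decoding centre, had a diet difference of -0.13 (SE 0.18, adjusted p = 0.717). Both genes share sequence through that origin, and which of them the probes of either row read was not tested.

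**Figure D4:**
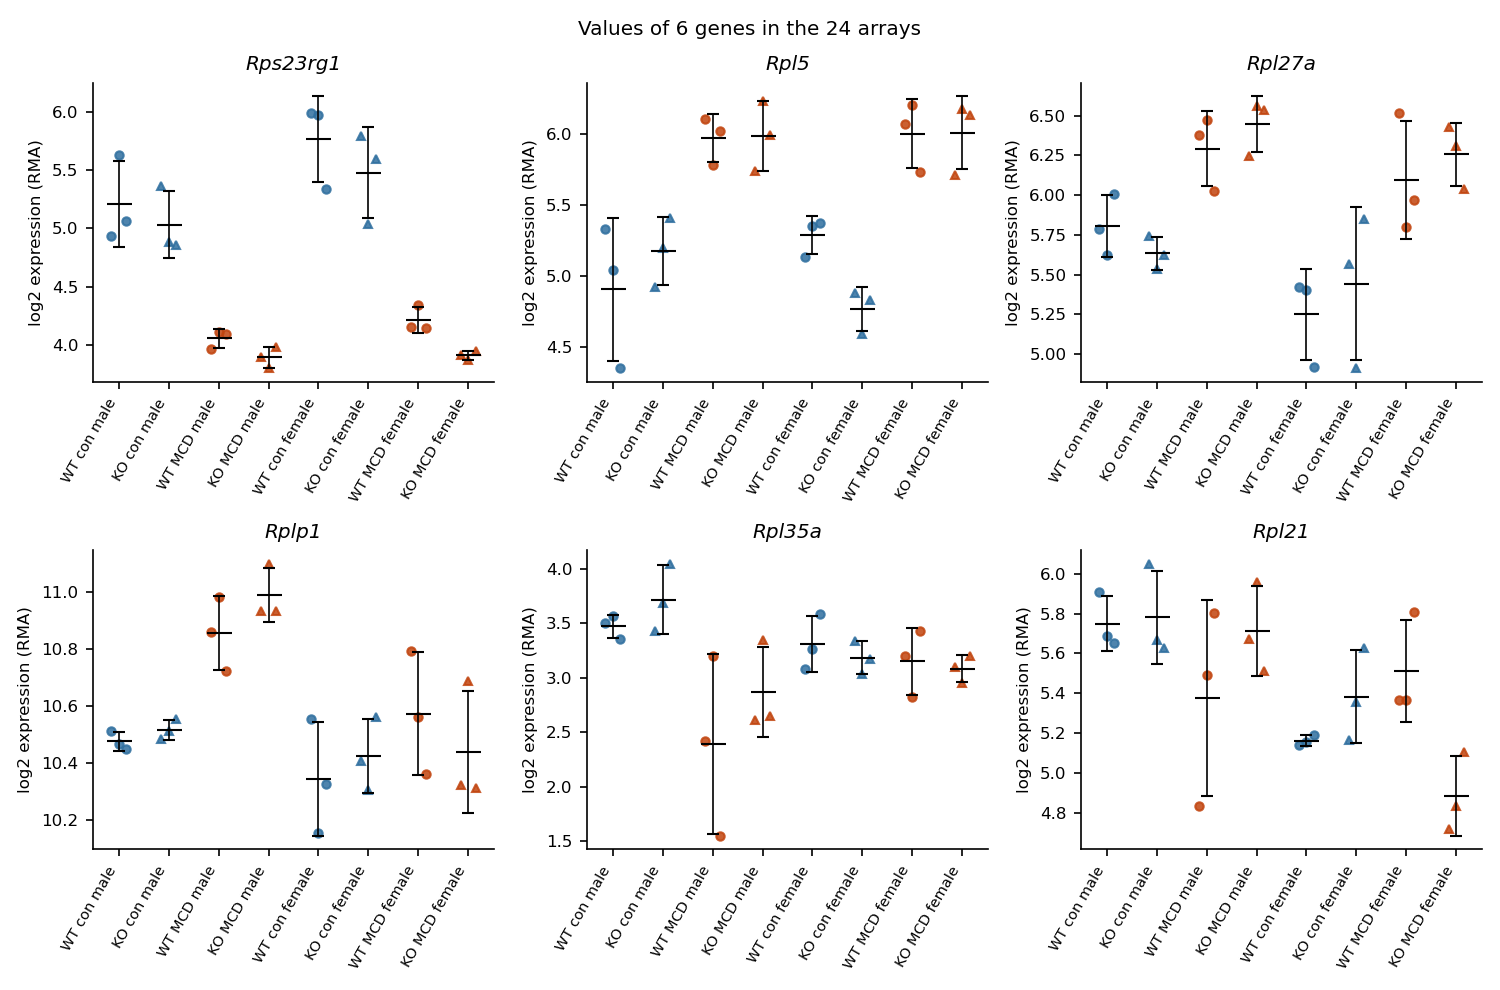
Log2 expression of 6 genes in each array, by group (blue control diet, orange MCD diet, circles HepCAV1wt, triangles HepCAV1ko; bar and whiskers, mean ± SD, n = 3). Control and MCD arrays are fully apart for Rps23rg1 and Rpl5, and overlap when pooled over groups for Rpl27a and Rplp1; the lowest Rpl35a array is WT MCD male 3 (1.55).

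Rpl27a, a large subunit protein, was at 4.91 to 6.01 with the control diet (median 5.59, 12 arrays) and at 5.80 to 6.56 with the MCD diet (median 6.34). It was higher by 0.74 on average (SE 0.11, adjusted p = 2.5e-05). Within each of the 4 combinations of genotype and gender all 3 MCD arrays lay above the 3 control arrays, narrowly in WT males (6.03 against 6.01), while pooled over groups the ranges overlapped. It passed in WT females (0.84, adjusted p = 0.0226) and KO males (0.81, adjusted p = 0.0226), had a difference of 0.81 in KO females (adjusted p = 0.0567) and of 0.49 in WT males (adjusted p = 0.244). In WT females the call was lost without WT con female 3 or WT MCD female 1 (adjusted p up to 0.168). In KO males it was lost without KO con male 2 or 3 or KO MCD male 2 or 3 (up to 0.0824).

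Rplp1, 1 of the acidic proteins of the stalk that recruits elongation factors, was at 10.15 to 10.56 with the control diet and at 10.31 to 11.10 with the MCD diet. Its average diet difference was 0.28 (SE 0.07, adjusted p = 0.00447). KO males had control arrays at 10.48, 10.51 and 10.55 and MCD arrays at 10.94, 11.10 and 10.94, a difference of 0.48 (adjusted p = 0.0329). In KO females the control arrays were at 10.41, 10.30 and 10.56 and the MCD arrays at 10.32, 10.69 and 10.31, a difference of 0.02 (adjusted p = 0.987). WT males had control arrays at 10.51, 10.46 and 10.45 and MCD arrays at 10.86, 10.98 and 10.72. WT females had control arrays at 10.55, 10.15 and 10.33 and MCD arrays at 10.79, 10.56 and 10.36. MCD arrays thus stood apart from control arrays in males of both genotypes but in females of neither, though Rplp1 passed in KO males alone. The difference between genders averaged over genotype was 0.31 (SE 0.13, adjusted p = 0.521). The call in KO males was lost whichever of its 6 arrays was left out (adjusted p 0.0591 to 0.124). Rplp0, the core of that stalk, had a diet difference of 0.03 (SE 0.10, adjusted p = 0.877). Its mean over the 24 arrays was 2.55, far below the median over all genes of 3.83, and such rows carry less signal over background.

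Of the other genes that rose on average, Rpl17, which lies at the exit tunnel, was at 2.84 to 4.44 (median 3.35) with the control diet and at 3.49 to 4.36 (median 3.95) with the MCD diet. The difference was 0.54 (SE 0.15, adjusted p = 0.0109), and 1 control array (WT con male 1, 4.44) was above every MCD array. Rps24, a small subunit protein altered in some human patients with Diamond-Blackfan anaemia, was at 3.91 to 4.75 and at 4.35 to 5.01, a difference of 0.39 (SE 0.10, adjusted p = 0.00993). Rpl4 was at 10.63 to 11.00 and at 10.83 to 11.16, a difference of 0.18 (SE 0.05, adjusted p = 0.0152), the smallest of the 12. Control and MCD arrays overlapped for each of the 3 genes, and none of them passed within any single combination of genotype and gender.

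The genes that fell on average were large subunit names apart from Rps23rg1. Rpl7, a large subunit protein, was at 4.33 to 5.94 (median 5.06) with the control diet and at 3.71 to 4.99 (median 4.52) with the MCD diet, a difference of -0.69 (SE 0.18, adjusted p = 0.00918). Rpl35a, also altered in Diamond-Blackfan anaemia, was at 3.50, 3.56 and 3.36 in WT con males and at 2.42, 3.20 and 1.55 in WT MCD males. There it passed with a difference of -1.08 (adjusted p = 0.0276), and the arrays did not overlap. Its difference was -0.85 in KO males (adjusted p = 0.0761), -0.16 in WT females (adjusted p = 0.852) and -0.10 in KO females (adjusted p = 0.958). On average it was -0.55 (SE 0.14, adjusted p = 0.00728), and the difference between males and females was -0.84 (SE 0.28, adjusted p = 0.295). Leaving out any of the 6 arrays of WT males except WT MCD male 2 removed the call there (adjusted p up to 0.151), and without WT MCD male 2 the difference between males and females was -1.04 (adjusted p = 0.0489). Rpl10a, part of the flexible L1 stalk, fell by 0.32 (adjusted p = 0.0412), Rpl28, another large subunit protein, by 0.28 (adjusted p = 0.0468) and Rpl7l1, a relative of Rpl7, by 0.28 (adjusted p = 0.0401). Those 3 calls lay close to the threshold: they were lost when 16, 17 and 14 of the 24 arrays, respectively, were left out singly (adjusted p up to 0.084, 0.0926 and 0.0838). The other 9 of the 12 passed in all 24 of these fits. Mean values over the 24 arrays were 3.15 for Rpl35a, 3.58 for Rpl10a, 2.19 for Rpl28 and 3.67 for Rpl17. All of these lay below the median over all genes of 3.83, and rows far below it carry less signal over background.

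Rps27, a zinc finger protein of the small subunit, passed within KO females alone. Its control arrays there were at 4.87, 5.46 and 5.78 and its MCD arrays at 4.65, 4.36 and 4.39, a difference of -0.90 (SE 0.21, adjusted p = 0.0264). In the other 3 combinations the difference was 0.06, -0.25 and 0.23 in WT males, WT females and KO males, and the diet difference in males minus that in females was 0.72 (SE 0.21, adjusted p = 0.193). The call was lost without any of 5 of the 6 arrays, all except KO con female 1 (adjusted p up to 0.17), and without that array the difference between genders was 0.85 (adjusted p = 0.0452).

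**Figure D5:**
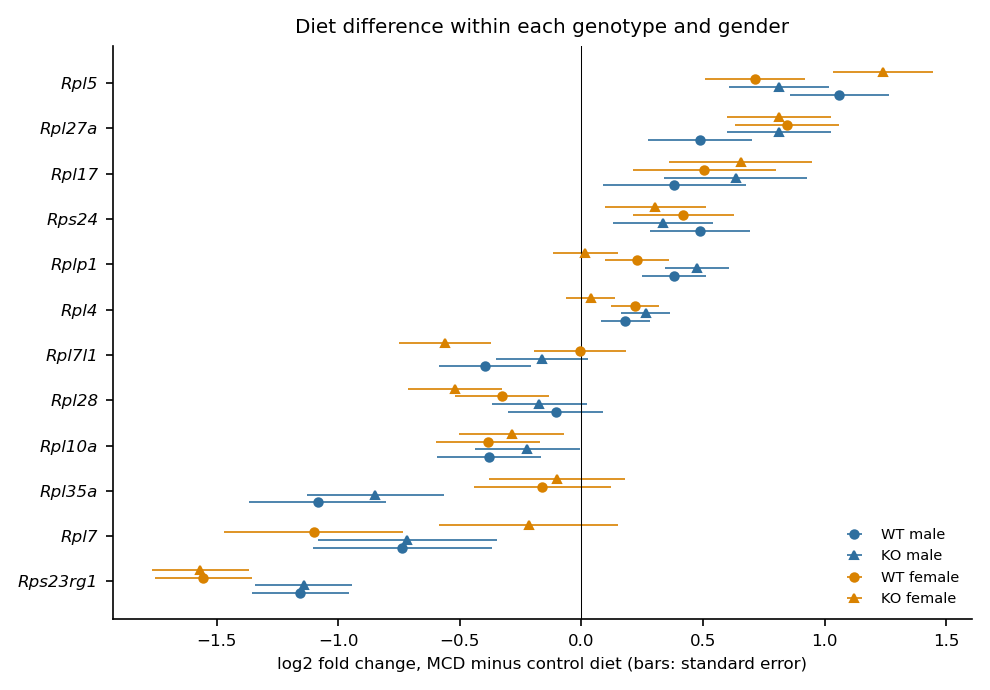
Log2 fold change, MCD minus control diet, of the 12 genes that passed on average, within each combination of genotype and gender (bars, standard error). Rpl5 lies between 0.71 and 1.24 and Rps23rg1 between -1.57 and -1.14 in all 4.

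Within single combinations of genotype and gender, 3, 3, 4 and 3 of the 69 genes passed for diet in WT males, WT females, KO males and KO females (4.35%, 4.35%, 5.8% and 4.35%), against 4.37%, 4.92%, 6.64% and 1.64% of all genes. In each combination 1 of those that passed was Rps23rg1, which does not encode a ribosomal protein. Control and MCD arrays were fully separated for 13, 16, 11 and 14 genes, respectively (18.8%, 23.2%, 15.9% and 20.3%), against 20.7%, 20.7%, 23.3% and 16.5% of all genes. Of the 26 small subunit names, Rps27 alone passed in any of these 4 comparisons.

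Males and females differed for 2 ribosomal protein genes on average. Of the 69, 2 passed (2.9%), against 3.67% of all genes, and both were higher in males (1.68% of all genes were). At an unadjusted p under 0.05 there were 10 (14.5%), against 15.2%. Rpl21, a large subunit protein, was at 4.84 to 6.05 (median 5.67) in males and at 4.72 to 5.81 (median 5.18) in females, a difference of 0.42 (SE 0.10, adjusted p = 0.0172). The ranges overlapped. Within KO MCD, males were at 5.67, 5.96 and 5.51 and females at 4.72, 4.83 and 5.11, with no overlap, a difference of 0.83 (adjusted p = 0.11). Within WT MCD it was -0.14 (adjusted p = 0.933), males being at 4.84, 5.49 and 5.80. Rplp1 was at 10.45 to 11.10 in males and at 10.15 to 10.79 in females, a difference of 0.26 (SE 0.07, adjusted p = 0.0249). That call was lost without WT con female 2, WT MCD male 2, WT MCD female 3, KO con female 2, KO MCD male 2 or KO MCD female 1 (adjusted p up to 0.0527). Rpl21 passed whichever array was left out. Rps23rg1 did not pass on average but did so, at -0.35, without WT con male 2, WT con female 3 or KO con female 2.

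Within each genotype and diet, 0 of the 69 genes passed for gender, against 1.27%, 0.215%, 1.48% and 0.202% of all genes in WT con, WT MCD, KO con and KO MCD. At an unadjusted p under 0.05, limma gave 7, 4, 6 and 5 members (10.1%, 5.8%, 8.7% and 7.25%), against 11.4%, 7.74%, 11.5% and 5.77% of all genes, and the methods' t-test gave 8, 2, 2 and 6 members (11.6%, 2.9%, 2.9% and 8.7%), against 9.85%, 5.9%, 8.69% and 5.99%. In WT con the limma members at that unadjusted threshold were 4 higher in males (5.8%, against 5.79% of all genes) and 3 lower (4.35%, against 5.56%). For that comparison the paper's pathway analysis relates genes higher in males to the ribosome, among other terms. Its gene list was not compared here. Male and female arrays were fully separated for 11, 7, 8 and 9 members (15.9%, 10.1%, 11.6% and 13%), against 16.5%, 11.5%, 15.6% and 11.6% of all genes. In WT con, Rpl30, a large subunit protein, was higher in males by 0.80 (SE 0.24, adjusted p = 0.129). Its mean over the 24 arrays, 2.71, lay below the median over all genes of 3.83. In KO con, Rps27 was at -0.69 for male minus female (adjusted p = 0.126) and Rpl22, which binds RNA at the surface of the large subunit, at -0.61 (adjusted p = 0.136). Without KO con female 1 the value for Rps27 was -0.94 (adjusted p = 0.0192). Sign over the 4 combinations was shared for 13 of the 69 (18.8%), against 20.5% of all genes.

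No ribosomal protein gene passed the test for HepCAV1ko against HepCAV1wt. For genotype, 0 of the 69 passed on average (0.00405% of all genes, 1 gene) and 0 in each combination of diet and gender. The share of all genes was 0.00405% in con males and 0% in the other 3 combinations. At an unadjusted p under 0.05 limma gave 6 members on average (8.7%), against 4.99% of all genes, and 2, 4, 4 and 4 in con males, con females, MCD males and MCD females, against 5.48%, 5.57%, 4.23% and 3.92% of all genes. Those counts are 2.9%, 5.8%, 5.8% and 5.8% of the 69. The methods' t-test gave 1, 2, 3 and 5 there (1.45%, 2.9%, 4.35% and 7.25%), against 5.08%, 4.31%, 3.57% and 4.93% of all genes. The members with the smallest unadjusted p on average were Rpl13 at 0.25 (95% interval 0.06 to 0.44, adjusted p = 0.957), Rps23rg1 at -0.23 (-0.44 to -0.03, adjusted p = 0.957) and Rpl14 at -0.26 (-0.49 to -0.02, adjusted p = 0.957). The mean of Rpl14 over the 24 arrays, 2.29, lay below the median over all genes of 3.83. In con males, Rps15a of the small subunit was at 4.45, 3.82 and 4.48 in WT and at 4.91, 4.75 and 5.91 in KO, with no overlap and a difference of 0.94 (SE 0.38, adjusted p = 0.844). In con females the difference was -0.42 (adjusted p = 0.966). In MCD females, Rps4l, a retrocopy of Rps4, was higher in KO by 0.91 (SE 0.30, adjusted p = 0.999). HepCAV1wt and HepCAV1ko arrays were fully separated for 9, 4, 7 and 11 of the 69 in con males, con females, MCD males and MCD females (13%, 5.8%, 10.1% and 15.9%), against 10.6%, 9.03%, 7.88% and 10.2% of all genes. The sign was shared by the 4 combinations for 9 of the 69 (13%), against 13.5%.

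The effect of 1 factor was not shown to depend on another for any member. In the 3 tests of such differences 0 of the 69 passed, against 0.534% of all genes for diet by gender and 0% for diet by genotype and genotype by gender. At an unadjusted p under 0.05 there were 6, 1 and 6 members (8.7%, 1.45% and 8.7%), against 8.48%, 3.3% and 4.69% of all genes. With the diet difference in males minus that in females, Rps27 at 0.72, Rps3 at 0.41 (SE 0.12, adjusted p = 0.207) and Rpl35a at -0.84 had the smallest p.

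The paralogs, several of them known for expression in particular tissues such as muscle (Rpl3l) and testis (Rpl10l, Rpl39l), had diet differences below 0 in 6 of 7 cases and above 0 for Rpl39l, and Rpl7l1 alone passed. Rpl22l1 had a diet difference of -0.11 (SE 0.10, adjusted p = 0.489) and its parent Rpl22 one of -0.07. Rps27l, which p53 induces in human cells, had one of -0.03 (SE 0.07, adjusted p = 0.81). Rpl36al was at -0.21 (adjusted p = 0.175), Rpl39l at 0.22 (adjusted p = 0.122), Rpl3l at -0.12 (adjusted p = 0.396) and Rpl10l at -0.06 (adjusted p = 0.665). Means of Rpl39l, Rpl3l and Rpl10l over the 24 arrays (3.49, 3.72 and 2.54) lay below the median over all genes of 3.83. None of the 6 retrocopies passed, and Rps4l was at -0.23 (adjusted p = 0.332).

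Other genes of the protein synthesis machinery are given beside the members for the MCD diet, where 9.79% of all genes rose and 9.39% fell. Differences between these lists and the members were not tested. Of 35 ribosome biogenesis factors, which process rRNA and assemble subunits, 11 rose and 1 fell on average, with a median of 0.13 (-0.01 over all genes). Nop58, of the box C/D particles that guide rRNA methylation, rose by 0.67 (SE 0.10, adjusted p = 5.9e-05), Ltv1, a small subunit assembly factor, by 0.43 (adjusted p = 2.9e-04) and Nop2, an rRNA methyltransferase, by 0.43 (adjusted p = 0.0106). Rrp9, which binds the U3 particle, fell by 0.27 (adjusted p = 0.0261). Of 14 genes of RNA polymerase I and its factors, which make rRNA, 0 rose and 0 fell. Of 16 translation factors whose mRNAs carry TOP motifs, 0 rose and 2 fell, Eef1g by 0.44 (adjusted p = 0.00917) and Eif4b by 0.25 (adjusted p = 0.0218). Fau and Rpsa, ribosomal proteins whose symbols escape the rule, had differences of -0.22 and 0.29 and did not pass. Of 78 mitochondrial ribosomal proteins, 10 rose and 11 fell, from Mrpl49 at -0.53 to Mrpl54 at 0.69.

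Of 7 genes around Myc and p53, 3 rose and 2 fell. The transcription factor Myc, which drives ribosome synthesis, rose by 1.34 (SE 0.25, adjusted p = 5.0e-04), its partner Max by 0.19 (adjusted p = 0.0417), and the p53 target Cdkn1a by 1.56 (SE 0.16, adjusted p = 4.2e-07). Mxd1, which competes with Myc for Max, fell by 0.40 (adjusted p = 6.1e-04), and the Myc relative Mycn by 0.36 (adjusted p = 9.4e-04). Of 16 genes of mTORC1 and TOP control 3 rose and 4 fell: the translation repressor Eif4ebp1 rose by 0.69 and the mTOR inhibitor Deptor fell by 0.36. Of 11 genes of the eIF2α and ATF4 response to amino acid lack, 7 rose and 0 fell, with Asns, the asparagine synthetase, higher by 2.09. Of 39 rows of ribosomal protein pseudogenes, 4 rose and 0 fell, Rps12-ps4 by 0.47 and Rps12-ps2 by 0.35 among them.

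Markers of other cells moved with the same diet contrast. All 6 markers of lipid-associated macrophages rose, and their mean level per array was 4.45 to 4.85 with the control diet and 5.51 to 7.92 with the MCD diet. Of the stellate cell and fibroblast markers 6 of 7 rose, of the Kupffer cell and macrophage markers 3 of 8 rose and 1 fell, and of the lymphocyte markers 0 of 7 changed. Neutrophil markers rose in 2 of 5 cases, endothelial in 1 of 6, cholangiocyte in 1 of 4 and erythroid in 0 of 3, and 0 of these fell. The part of these cells in the diet differences of the ribosomal protein genes was not tested.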

How the data were processed

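Whole liver RNA was hybridised to Affymetrix MoGene 2.0 ST arrays. The deposited values are log2 expression per gene, which the authors made with RMA (background correction, quantile normalization and summary of probes; version, annotation and probes per row are not given in the sources used here). Of 25428 rows, 24705 had a symbol in the platform annotation and 723 had none. The brighter row was kept for the 1 symbol with several, which left 24704 genes. Nothing else was filtered. limma (version 3.58.1, R 4.3.3) fitted a mean to each of 8 groups over all 24 arrays (16 residual degrees of freedom), with p-values adjusted by Benjamini-Hochberg over all genes and a threshold of 0.05. Number of arrays limits the precision. The fit was tested on simulated data.

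Members, neighbouring lists, markers and the rule for named genes were chosen with earlier results of these data known. Classes of members, the base window, the run length and the fit on core genes alone were chosen after values or windows had been seen. Named were the genes that passed, up to 8 in each direction on average and 5 in each within combinations, examples among the 3 smallest p where fewer than 3 passed, the 3 largest and 3 smallest SDs, paralogs, stalk and 5S proteins, and up to 3 genes of each neighbouring list. A few further genes (Rps23, Rrp9, Mycn, Max, Fau and Rpsa) were named after their values had been seen. Base windows came from the RefSeq promoter table.

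Alternatives were array weights, a replicate block, an intensity trend with a robust prior, median centring and a repeated quantile normalization. Further ones were bright genes alone, every row kept, the 6 arrays alone, a t-test and each array left out. The paper's statistics section names a t-test among other tests and does not say which was used for the arrays.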

Additional observations from a re-analysis of the deposited data

How the results depend on the processing

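No value that passed the test changed direction under any alternative. The count of members that passed for diet in KO females rose from 3 to 5 with array weights. It was also 5 among genes above the median level, which held 38 of the 69 members. Rpl27a and Rps14 (a small subunit protein) were those gained. The share of all genes that passed in these fits was not counted. With array weights 1 member, Rpl21, passed for gender in KO MCD, against 0, while Rpl35a in WT males (adjusted p = 0.0823), Rpl5 in WT females (0.0596) and Rpl28 on average (0.0563) no longer passed. A fit of the 6 arrays alone gave 1 member, Rps23rg1, for diet in WT females, against 3, where Rpl27a (adjusted p = 0.0798) and Rpl5 (0.0518) were lost. It also ended the calls of Rpl35a in WT males (0.149), Rplp1 in KO males (0.0664) and Rps27 in KO females (0.147). A t-test gave 0 members after Benjamini-Hochberg adjustment in each of the 4 diet comparisons, where 1 of all 24704 genes passed in each. Unadjusted it gave 3, 7, 7 and 7 members in WT males, WT females, KO males and KO females (4.35%, 10.1%, 10.1% and 10.1%). Of all genes, 12.9%, 13.4%, 15.3% and 9.76% passed it unadjusted. Leaving out 1 array gave 9 to 13 members for diet on average, 1 to 3 for gender on average, and 0 to 1 for diet by gender. It gave 2 to 3 members for diet in WT males, 1 to 3 in WT females, 2 to 3 in KO males and 2 to 3 in KO females, and 0 to 1 for gender in KO con. Arrays with the same number did not meet the rule for pairing (every pair over 0.1): the correlation of their deviations from group means was 0.04 on average (-0.14 to 0.25) and over 0.1 in 16 of 84 pairs. Different numbers averaged -0.02, and 14 of 24 arrays correlated best with their own number, a hint from the data and not the design. The replicate block left 62 of 64 named values on the same side of the threshold. Rpl5 in WT females (adjusted p = 0.0546) and Rpl28 on average (adjusted p = 0.0521) no longer passed with it. An intensity trend with a robust prior, median centring, a repeated quantile normalization and every row kept left all 64 on the same side. Of the 54 core genes alone, 10 passed for diet and 2 for gender on average, against 19.2% and 3.67% of all genes. Rows far below the median level of all genes carry less signal over background, and how many probes lie behind each row was not tested.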
